A study of Homo sapiens with 6 samples.

Results

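The genes described here are 145 microRNA precursor genes of low number, let-7 and MIR1 to MIR199, out of 14884 genes measured on 6 Affymetrix arrays. They were picked by symbol in the array annotation, 8 host genes with symbols ending in HG were left out, and for each gene the brightest feature (a set of probes summarised to a single value) was kept. The cells were HCT-8, a human colon cancer line, grown in DMEM. The study compared cells that stably express an shRNA (short hairpin RNA) directed at TRIB3, a pseudokinase gene of the Tribbles family, from a plasmid with cells that express a control shRNA, and each group had 3 arrays. Hygromycin selection began 24 hours after transfection and lasted 14 days, and the resistant cells were kept as uncloned populations for 2 to 3 passages with the drug, so both groups share the transfection and the selection. The hairpin sequences and the plasmid backbone are not given in the labels.

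A microRNA gene is transcribed as a long primary transcript, often together with a protein-coding host gene or with neighbouring microRNAs. The nuclease DROSHA, held by DGCR8, cuts a hairpin out of that transcript, XPO5 carries the hairpin to the cytoplasm, and DICER1 trims it to a mature strand that is loaded into an Argonaute protein. The mature strand pairs with target messages mainly through its seed, and microRNAs with the same seed are treated as a family. The let-7, miR-29 and miR-15/16 families are known as brakes on growth and matrix genes, and the miR-196 genes sit inside the HOX clusters. The labels describe total RNA turned into single-stranded cDNA and mention no step that selects small RNA, so a feature named for a microRNA gene may report its primary transcript, its hairpin or both, and it does not measure the mature strand separately.

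Of the 145 genes, 129 had a hairpin and 136 a mature sequence in the RefSeq tables (GRCh38.p14), and hairpins ran from 64 to 137 bases. The 3 miR-196 hairpins are shown because 2 of them moved in opposite directions although they give rise to the same mature strand. Capitals mark the mature 5p strand. MIR196A1 lies at chr17:48632490-48632559 on the minus strand, MIR196A2 at chr12:53991738-53991847 on the plus strand and MIR196B at chr7:27169480-27169563 on the minus strand.
MIR196A1: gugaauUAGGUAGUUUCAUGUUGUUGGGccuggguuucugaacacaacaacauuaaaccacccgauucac
MIR196A2: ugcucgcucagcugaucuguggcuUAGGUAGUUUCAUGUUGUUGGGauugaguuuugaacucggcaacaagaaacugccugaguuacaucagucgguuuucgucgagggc
MIR196B: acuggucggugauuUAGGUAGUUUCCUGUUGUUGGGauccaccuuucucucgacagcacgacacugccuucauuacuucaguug

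The mature strands of the other genes on which the results turn follow, with the seed (bases 2 to 8) in capitals, grouped so that strands with the same seed stand together. MIR29B1 and MIR29B2 both encode miR-29b-3p, MIR16-1 and MIR16-2 both encode miR-16-5p, and MIRLET7F1 and MIRLET7F2 both encode let-7f-5p.
miR-29a-3p: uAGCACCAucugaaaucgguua
miR-29b-3p: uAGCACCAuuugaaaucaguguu
miR-29c-3p: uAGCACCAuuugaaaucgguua
miR-15a-5p: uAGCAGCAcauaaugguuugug
miR-15b-5p: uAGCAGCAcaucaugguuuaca
miR-16-5p: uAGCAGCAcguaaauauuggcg
miR-195-5p: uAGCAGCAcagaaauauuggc
miR-99a-5p: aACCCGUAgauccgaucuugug
miR-99b-5p: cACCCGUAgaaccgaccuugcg
miR-100-5p: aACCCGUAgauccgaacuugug
let-7a-5p: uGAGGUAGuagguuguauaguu
let-7f-5p: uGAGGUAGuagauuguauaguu
miR-98-5p: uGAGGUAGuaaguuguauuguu
miR-148b-3p: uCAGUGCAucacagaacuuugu
miR-154-5p: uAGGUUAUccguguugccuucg

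All values below are the deposited RMA signals, which are on a log2 scale, and differences are the mean of the arrays labelled TRIB3-shRNA minus the mean of the arrays labelled Control-shRNA. TRIB3 itself went against the labels: it read 8.43, 8.48 and 8.27 under the label TRIB3-shRNA and 7.37, 7.14 and 7.48 under the label Control-shRNA, a difference of 1.07 (SE 0.14, adjusted p = 0.0041). The direction of every difference therefore rests on labels that the targeted gene does not bear out. Array medians over all genes ran from 5.62 to 5.70. Of 12 colon epithelial markers 9 were measured, and 7 of them lay above the median of every array. The lowest of the 9 averaged 4.23, and 1 of them had an adjusted p under 0.05 between the groups. Only 2 of 6 fibroblast, 1 of 6 leukocyte and 2 of 3 endothelial markers were measured. The fibroblast markers DCN and LUM and the monocyte marker CD14 lay below the 25th percentile of every array, and the endothelial markers PECAM1 and VWF averaged 4.19 to 4.47. With 3 arrays a group precision is limited, and since nothing in the labels ties a replicate to its own culture, the p-values speak for the spread between these arrays and no more. In bulk RNA of this kind, fewer cells with a transcript and less transcript per cell cannot be told apart.

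Most of the precursor features were dim. Over the arrays the 25th percentile of gene signals ran from 4.26 to 4.36, and 69 of the 145 precursor genes (47.6%) were at or below it on every array, while 52 (35.9%) were above it on every array. The median of an array was passed on every array by 19 (13.1%) and the 75th percentile by 0. The median level of the precursor genes was 3.89, and single genes ran from 1.28 (MIR1-2) to 7.53 (MIR196A1). The other 927 microRNA precursor genes on the arrays had a median of 3.77, and all genes had a median of 5.67. The 10 brightest features were those of MIR196A1, MIR99B, MIR25, MIR181D, MIRLET7A3, MIR127, MIR98, MIR92B, MIR26B and MIR185, with means from 6.38 to 7.53. Signals of different features are not abundances, so this order does not rank the transcripts.

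The dim features were also the noisier ones. The median SD within a group was 0.29 for the 84 precursor genes with a mean below the 25th percentile of gene means and 0.19 for the 22 above the median, against 0.19 for all genes. Signal moved with the base composition of the hairpin: across the 129 genes with a hairpin, GC content and mean signal had a Pearson correlation of 0.52 (Spearman 0.51), a description over features that share the same arrays. The 32 genes of lowest GC content (32% to 43.4%) had a median signal of 2.56, and the 32 of highest (55.95% to 75%) had 5.46. The part of GC content in the level of any single gene was not tested, and the difference between groups had a correlation of 0.18 with GC content.

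**Figure D1:**
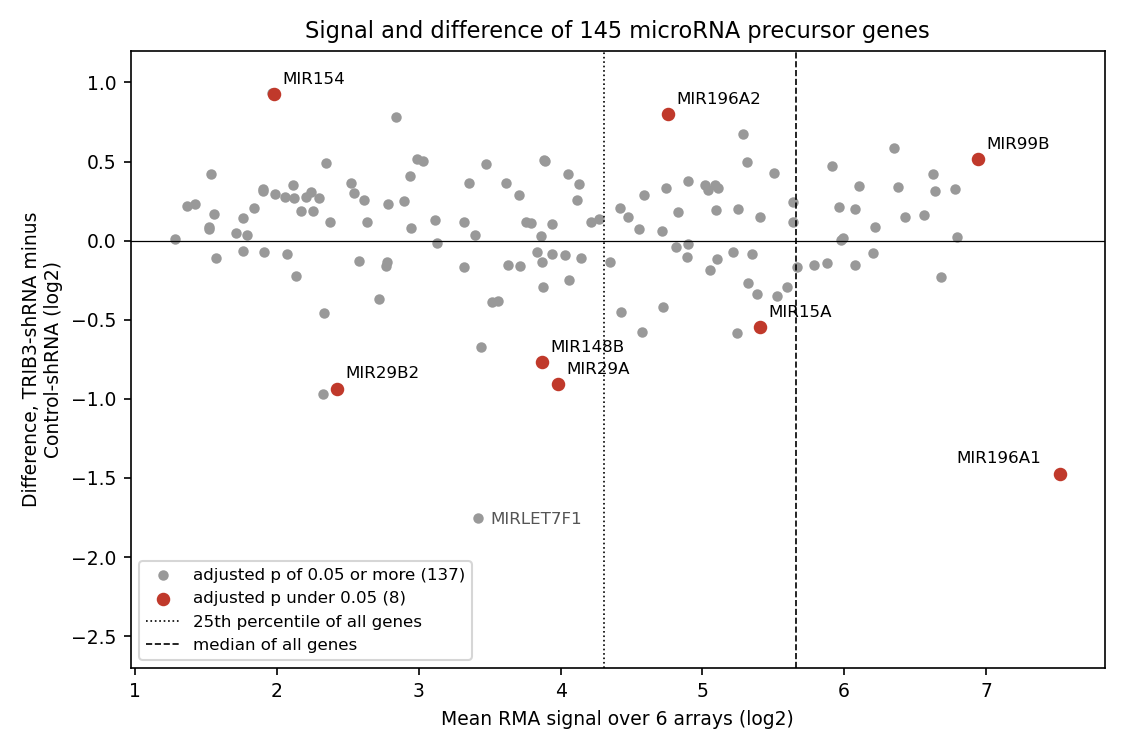
Mean RMA signal over the 6 arrays (horizontal, log2) against the difference between arrays labelled TRIB3-shRNA and Control-shRNA (vertical, log2) for each of the 145 precursor genes. The 8 genes with an adjusted p under 0.05 are red, and the dotted and dashed lines mark the 25th percentile and the median of all genes. MIR196A1 lies at the far right with a difference of -1.47, and MIRLET7F1 has the lowest difference (-1.75) without passing the test.

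Between the groups, 8 of the 145 precursor genes passed the test (5.52%), against 9.64% of all genes tested, at a Benjamini-Hochberg adjusted p of 0.05 in limma. The share is below that of all genes, so the precursor genes as a group do not stand out. MIR99B, MIR154 and MIR196A2 rose (3 genes, 2.07%, against 3.25% of all genes), and MIR196A1, MIR29A, MIR29B2, MIR15A and MIR148B fell (5 genes, 3.45%, against 6.39%). The groups did not overlap in 34 genes (23.4%, against 32.0% of all genes), of which 23 were higher in the arrays labelled TRIB3-shRNA (15.9%, against 16.4%) and 11 lower (7.59%, against 15.6%). An unadjusted p under 0.05 was reached by 30 (20.7%, against 28.8%).

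Set beside genes of like signal, the share called was higher than that of all genes in the dim range and lower in the other 2. Each share rests on only 2 to 4 called precursor genes, and the contrasts were not tested. Of the 84 dim precursor genes, 4 passed (4.76%, against 3.02% of all genes in that range), of the 39 between the 25th percentile and the median 2 passed (5.13%, against 6.31%), and of the 22 above the median 2 passed (9.09%, against 14.6%). The median difference of the precursor genes was 0.12, with 92 above 0 and 53 below, and that of all genes was 0.04. Within the same ranges of signal the medians were 0.12 for the dim precursor genes and 0.12 for all dim genes, 0.07 and 0.05 in the middle range, and 0.15 and -0.04 above the median. The median of the precursor genes less that of all genes was 0.08 in the deposited values and, since centring moves every gene of an array alike, also after both centrings. It was 0.01 after quantile normalization and -0.01 when each array's trend against gene span was removed. That trend was fitted with the precursor genes included, so removing it can take out their own shared shift. Centring on the median and on the 75th percentile shifted the median of all genes to 0.09 and 0.14.

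MIR196A1, a microRNA gene of the HOXB cluster that is linked to body patterning, fell most among the called genes. It read 6.85, 6.73 and 6.79 under the label TRIB3-shRNA and 8.40, 8.24 and 8.14 under the label Control-shRNA. All 3 values of the first group lay below all 3 of the second, and every array read above its own median. The means were 6.79 ± 0.06 and 8.26 ± 0.13 (SD, n = 3), a difference of -1.47 (SE 0.13, 95% interval -1.76 to -1.19, adjusted p = 0.000782), or 2.78-fold lower. This call held under all 19 alternative settings, with adjusted p from 0.000188 to 0.00891.

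The genes beside MIR196A1 fell with it on 1 side. The 3 nearest measured genes toward HOXB7 encode homeobox transcription factors, and each passed the test. HOXB9 read 9.09, 9.25 and 9.0 against 10.13, 10.07 and 10.07 (difference -0.98, SE 0.12, adjusted p = 0.00368). HOXB7 differed by -0.87 (adjusted p = 0.00645) and HOXB8 by -0.70 (adjusted p = 0.0283). In all 3 the groups did not overlap. On the other side, PRAC1 differed by 0.29 (adjusted p = 0.321) and the homeobox gene HOXB13 by 0.20 (adjusted p = 0.447), neither past the test, and the next gene, the autophagy receptor gene CALCOCO2, fell by 0.85 (adjusted p = 0.0174). The calls of HOXB7 and HOXB9 held under all 19 alternatives. The call of HOXB8 was lost without any of 5 arrays, all but TRIB3-shRNA array 3 (adjusted p = 0.0509 to 0.115), and that of CALCOCO2 without TRIB3-shRNA array 1 (0.0578), Control-shRNA array 1 (0.0861) or Control-shRNA array 2 (0.0822).

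MIR196A2 has the same mature 5p strand as MIR196A1 and lies in the HOXC cluster, and it rose. The hairpins of these 2 genes are 70 and 110 bases long. Aligned whole, with the shared strand and the gaps from unlike length counted, 56 of 111 positions are identical (50.5%). MIR196A2 read 5.01, 5.14 and 5.33 under the label TRIB3-shRNA and 3.93, 4.60 and 4.55 under the label Control-shRNA, so the groups did not overlap, although Control-shRNA array 1 lay below the 25th percentile and well under its group. The difference was 0.80 (SE 0.19, adjusted p = 0.0371). The genes on the HOXC9 side rose as well: HOXC9 by 0.60 (adjusted p = 0.0389), HOXC8 by 0.84 (adjusted p = 0.012) and HOXC4 by 0.74 (adjusted p = 0.0173). On the other side HOXC10 differed by 0.19 (adjusted p = 0.551), HOXC11 fell by 0.61 (adjusted p = 0.0379), and the antisense RNA gene HOTAIR differed by -0.09 (adjusted p = 0.701). HOXC8 read 7.07, 6.80 and 6.62 against 5.99, 5.99 and 5.98, the widest separation of these 6.

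Every HOXC call just named was lost without Control-shRNA array 1 or without Control-shRNA array 2. Without the first, HOXC8 had an adjusted p of 0.0594, HOXC4 0.0594, HOXC9 0.116 and HOXC11 0.118, and without the second 0.0649, 0.0684, 0.151 and 0.121. HOXC4, HOXC9 and HOXC11 also lost theirs without TRIB3-shRNA array 2 (0.0724, 0.111 and 0.101), HOXC9 without TRIB3-shRNA array 1 (0.111) and HOXC11 without Control-shRNA array 3 (0.0705). Rescaling ended the call of HOXC11 (quantile 0.0756, median 0.0528, 75th percentile 0.0764) and of HOXC9 (span trend removed, 0.0524). The directions of these 4 genes were the same in each of those fits. MIR196B, the third gene with this seed, lies in the HOXA cluster and read 6.17, 6.32 and 6.28 against 6.25, 6.18 and 6.10. Its groups overlapped, and it differed by 0.08 (SE 0.12, 95% interval -0.19 to 0.36, adjusted p = 0.684). That interval does not reach the difference estimated for MIR196A1 or MIR196A2, but the interval of MIR196A2 itself began at 0.36.

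**Figure D2:**
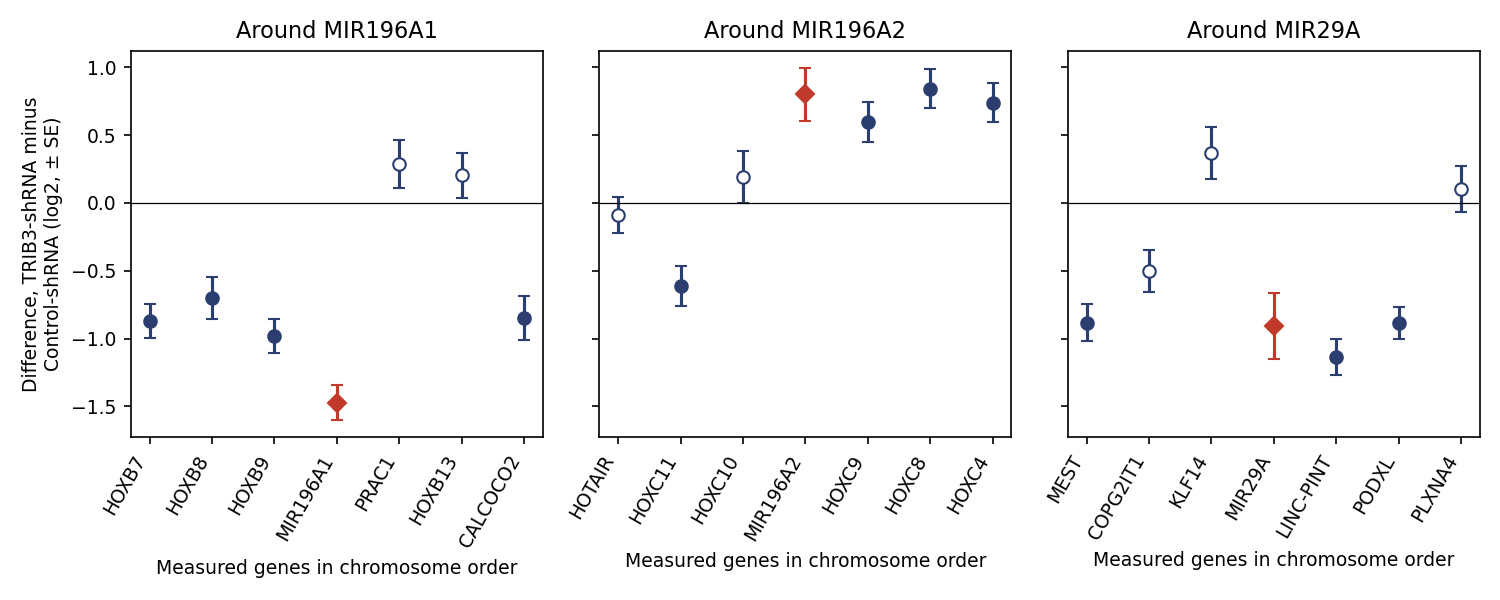
Differences between arrays labelled TRIB3-shRNA and Control-shRNA (log2, bars ± SE) for MIR196A1, MIR196A2 and MIR29A (red diamonds) and the 3 nearest measured genes on each side, in chromosome order and not to distance. Filled symbols passed the test and open symbols did not. HOXB7, HOXB8 and HOXB9 lie below 0 beside MIR196A1, HOXC9, HOXC8 and HOXC4 above 0 beside MIR196A2, and LINC-PINT, PODXL and MEST below 0 around MIR29A.

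In the miR-29 family, which targets collagens and DNA methyltransferases, 2 of 4 genes fell and the other 2 did not pass the test. MIR29A, whose mature strand lies at chr7:130876748-130876769 on the minus strand, read 3.28, 3.27 and 4.03 under the label TRIB3-shRNA and 4.74, 4.49 and 4.07 under the label Control-shRNA. The groups nearly touched at array 3 of each, which lay closest to the other group. The difference was -0.91 (SE 0.24, adjusted p = 0.0486). MIR29B2 (mature strand at chr1:207802450-207802472, minus strand) read 2.13, 1.69 and 2.05 against 2.59, 2.71 and 3.38, below the 25th percentile on every array, a difference of -0.93 (SE 0.22, adjusted p = 0.0334).

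The partner of each in its cluster did not pass the test. MIR29B1, within 10 kb of MIR29A and with the same mature strand as MIR29B2, differed by 0.35 (SE 0.23, adjusted p = 0.335), and MIR29C, within 10 kb of MIR29B2, by 0.15 (SE 0.20, adjusted p = 0.667). The hairpins of MIR29B1 and MIR29B2 are 81.9% identical. Several genes around MIR29A fell: the long noncoding RNA gene LINC-PINT by 1.14 (adjusted p = 0.0031), PODXL, which encodes the surface sialomucin podocalyxin, by 0.89 (adjusted p = 0.0044), and the imprinted gene MEST by 0.88 (adjusted p = 0.00878). LINC-PINT and PODXL kept their calls under all 19 alternatives, and MEST lost its call without Control-shRNA array 1 (0.0504) or array 2 (0.0561). KLF14 and PLXNA4, also among the 6, differed by 0.37 and 0.10 without passing the test, and COPG2IT1 by -0.50 (adjusted p = 0.0752). None of the 6 genes nearest MIR29B2 passed.

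The family with the seed of miR-15 and miR-16, which restrains BCL2 and cell cycle genes, had 1 of 5 genes called. MIR15A (mature strand at chr13:50049167-50049188, minus strand) read 5.16, 5.30 and 4.94 under the label TRIB3-shRNA and 5.71, 5.59 and 5.75 under the label Control-shRNA, above the 25th percentile on every array and without overlap. It fell by 0.55 (SE 0.14, adjusted p = 0.0402). MIR16-1, within 10 kb of it on the same strand, read 5.37, 5.12 and 5.09 against 4.45, 5.04 and 5.02, higher without overlap but not past the test (difference 0.35, adjusted p = 0.236). Without Control-shRNA array 1, the lowest, the difference was 0.16. Their neighbour DLEU1, a long noncoding RNA gene, differed by -0.51 (adjusted p = 0.0502). The other pair of the family, MIR15B and MIR16-2, lies inside SMC4, a condensin subunit gene, and all 3 values were negative (-0.67, -0.45 and -0.72) with adjusted p of 0.209, 0.313 and 0.117. MIR195 differed by 0.36 (adjusted p = 0.216).

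MIR148B, of the family that targets the DNA methyltransferase DNMT1, read 3.45, 3.23 and 3.76 against 4.50, 3.88 and 4.37 and fell by 0.77 (SE 0.20, adjusted p = 0.0455). Its mature strand lies at chr12:54337278-54337299 on the plus strand. The groups did not overlap, and all 3 arrays labelled TRIB3-shRNA were below the 25th percentile. MIR148A and MIR152, which carry the same seed, differed by 0.19 (adjusted p = 0.589) and 0.00 (adjusted p = 0.99). Among its neighbours CBX5, which encodes a heterochromatin protein, differed by -0.66 (adjusted p = 0.052) and HNRNPA1 by -0.42 (adjusted p = 0.2), and none of the 6 passed.

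MIR99B, of the family that targets MTOR, rose. It read 7.18, 7.06 and 7.38 under the label TRIB3-shRNA and 6.76, 6.64 and 6.66 under the label Control-shRNA, above the median on every array and without overlap. The difference was 0.52 (SE 0.13, adjusted p = 0.0429). MIR99B lies with MIRLET7E and MIR125A inside SPACA6 on chromosome 19 (mature strand of MIR99B at chr19:51692618-51692639, plus strand). MIRLET7E read 6.34, 6.52 and 5.98 against 5.76, 5.86 and 6.18 (difference 0.35, adjusted p = 0.236), and MIR125A 2.98, 2.97 and 3.47 against 2.59, 2.91 and 2.70 (difference 0.41, adjusted p = 0.151). MIR125A had no overlap between groups, while in MIRLET7E Control-shRNA array 3 was above TRIB3-shRNA array 3. The host SPACA6 differed by 0.15 (adjusted p = 0.492).

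No gene of the related clusters passed the test. MIR99A differed by 0.50 (adjusted p = 0.117) and its cluster partner MIRLET7C by 0.26 (adjusted p = 0.519), and MIR100 by 0.21 (adjusted p = 0.536) and its partner MIRLET7A2 by 0.28 (adjusted p = 0.447). Without TRIB3-shRNA array 1 the value of MIR99A was 0.31 and that of MIRLET7C turned to -0.03. The 3 genes with the miR-99/100 seed and the 3 with the miR-125 seed (MIR125A, MIR125B1 and MIR125B2) were above 0 in the deposited values. They stayed above 0 in each of the 4 rescalings (quantile, median, 75th percentile and span trend). Both centrings raised every difference, so they could not turn a value that was above 0. Without TRIB3-shRNA array 2 the value of MIR125B2 was -0.01. MIR100 and the 3 genes with the miR-125 seed lay below the 25th percentile on every array. Values above 0 were the more frequent among all precursor genes, in 92 of 145 in the deposited values and in 77 to 105 over the rescalings. The transcripts that host them did not pass the test: MIR99AHG differed by -0.47 (adjusted p = 0.321) and MIR100HG by 0.16 (adjusted p = 0.432).

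MIR154, in the imprinted DLK1-MEG3 region of chromosome 14, read 2.29, 2.82 and 2.22 under the label TRIB3-shRNA and 1.32, 1.45 and 1.78 under the label Control-shRNA. The groups did not overlap, but every value lay below the 25th percentile of its array. The difference was 0.92 (SE 0.19, adjusted p = 0.0233). MIR134, within 10 kb of it, differed by 0.20 (adjusted p = 0.482), and MIR127 and MIR136 of the same region by 0.32 each (adjusted p = 0.12 and 0.549), the last turning to -0.03 without TRIB3-shRNA array 3. Of the 6 nearest other genes, RTL1 differed by 0.40 (adjusted p = 0.135), MEG3 by 0.15 (adjusted p = 0.471) and MEG9 by -0.03 (adjusted p = 0.945), and none passed.

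**Figure D3:**
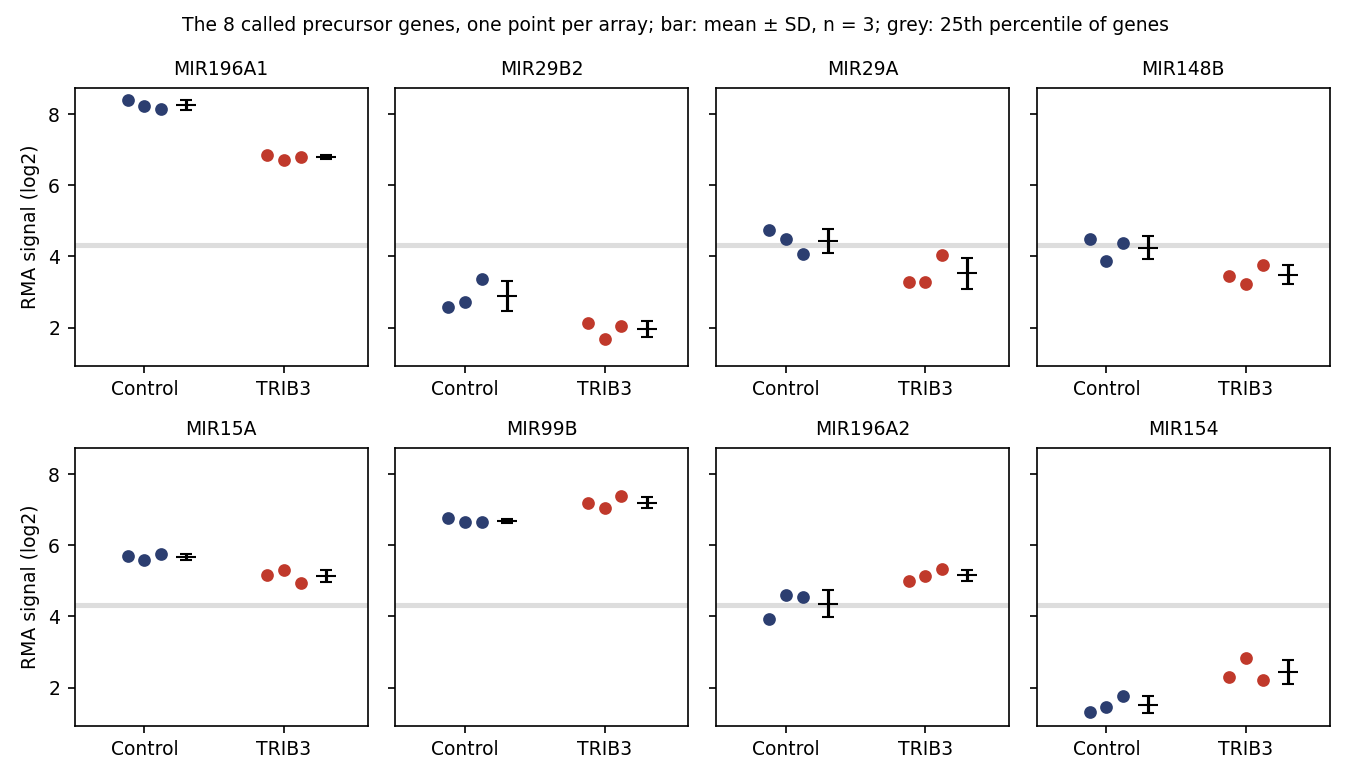
RMA signal (log2) of the 8 called precursor genes, 1 point per array, with the mean ± SD of the 3 arrays of each group, blue for Control-shRNA and red for TRIB3-shRNA. The grey band is the range of the 25th percentile of gene signals over the arrays. MIR196A1, MIR99B and MIR15A lie above the band on every array, MIR29B2 and MIR154 below it on every array, and MIR29A, MIR148B and MIR196A2 across it.

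Apart from MIR196A1, the 7 calls were lost when single arrays were left out. Without Control-shRNA array 1, without Control-shRNA array 2 or without TRIB3-shRNA array 2, all 7 lost their calls, with adjusted p of 0.0622 to 0.171, 0.0575 to 0.161 and 0.0718 to 0.149. Without TRIB3-shRNA array 1, all of them but MIR154 did (0.0645 to 0.14). Without TRIB3-shRNA array 3, MIR15A and MIR99B did (0.0558 and 0.0616), and without Control-shRNA array 3, MIR148B, MIR15A and MIR99B did (0.07 to 0.0856). Rescaling ended the calls of MIR15A (median centring, 0.0574, and 75th percentile centring, 0.0841), MIR148B (75th percentile centring, 0.0526), and MIR196A2 and MIR99B (span trend removed, 0.0549 and 0.0959). Each of the 7 kept the direction of its difference in all of these fits, and some differences were larger in size: MIR29B2 went from -0.93 to -1.09 without Control-shRNA array 1, and MIR148B from -0.77 to -0.95 without Control-shRNA array 2, while MIR196A2 went from 0.80 to 0.59 without Control-shRNA array 1. Calls over all genes fell too, from 1435 to 261 and 199 without Control-shRNA array 1 or 2 and to 507 and 372 without TRIB3-shRNA array 1 or 2.

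Several uncalled genes had large differences that missed the threshold. MIRLET7F1 had the lowest difference of all 145, -1.75 (SE 0.49, adjusted p = 0.0563), from 1.34, 3.53 and 2.76 against 3.88, 4.93 and 4.08. Its groups did not overlap, but TRIB3-shRNA array 1 lay far under the other two of its group, whose SD was 1.11. Without that array the difference was -1.15, smaller in size than that of MIR196A1, so its place as the lowest rests on 1 array. MIR95 differed by -0.97 (adjusted p = 0.0761), or by -0.58 without Control-shRNA array 3, and MIR190B by 0.93 (adjusted p = 0.0511), both below the 25th percentile on every array. MIR142, known from blood cells, differed by 0.78 (adjusted p = 0.106) with overlapping groups, also below the 25th percentile. Brighter genes near the threshold were MIR30E (0.59, adjusted p = 0.0626), MIR98 (0.42, adjusted p = 0.065), MIRLET7A1 (0.67, adjusted p = 0.0696) and MIR27B (-0.59, adjusted p = 0.075, and -0.39 without TRIB3-shRNA array 2), none with overlapping groups.

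In the let-7 family, which restrains RAS, HMGA2 and LIN28 messages, 0 of 11 genes passed the test. Their differences were above 0 in 7 and below 0 in 4, with a median of 0.07, which became -0.03 when the span trend was removed. MIRLET7A1, MIRLET7F1 and MIRLET7D lie within 10 kb of each other on the same strand of chromosome 9, and they differed by 0.67, -1.75 and -0.35. MIRLET7A1 read 5.71, 5.64 and 5.52 against 4.55, 5.41 and 4.89, so that it and MIRLET7F1 pointed in opposite directions from the same stretch. MIR98 and MIRLET7F2, neighbours on chromosome X, differed by 0.42 and 0.07, and MIR98 read 6.81, 6.83 and 6.86 against 6.47, 6.26 and 6.50. MIRLET7A3 (-0.23), MIRLET7G (0.06) and MIRLET7I (-0.11) had overlapping groups.

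**Figure D4:**
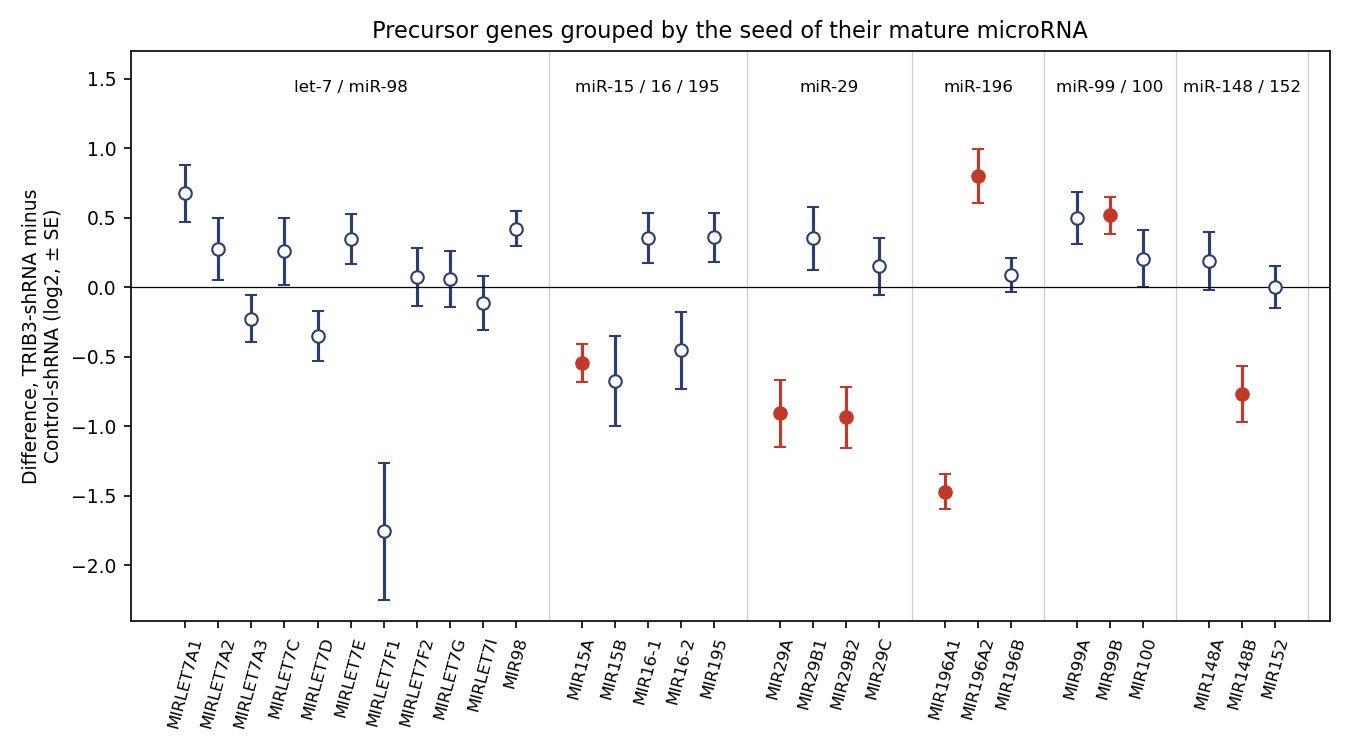
Differences between arrays labelled TRIB3-shRNA and Control-shRNA (log2, bars ± SE) of precursor genes grouped by the seed of their mature microRNA. Filled red points passed the test. The let-7 / miR-98 group spreads from -1.75 (MIRLET7F1) to 0.67 (MIRLET7A1), the miR-196 group from -1.47 to 0.80, and the 3 genes of the miR-99 / 100 group lie above 0.

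Some mature products come from more than 1 measured gene. Among these genes 23 mature sequences are encoded at more than 1 measured locus, involving 41 genes, and in 16 of the 23 the loci had differences of opposite sign, a count that ran from 12 to 17 over the 4 rescalings. Signs alone carry no test, several of these differences lie close to 0 (MIR9-1 at -0.10 and MIR9-3 at 0.07, which share both mature strands), and only miR-196a-5p had more than 1 called locus, while miR-29b-3p had 1 and the other 21 had 0. The median distance between the highest and lowest locus was 0.29. It was widest for miR-196a-5p (2.27), let-7f-5p (1.83) and miR-29b-3p (1.29). MIR105-1 and MIR105-2, with hairpins 97.5% identical, differed from each other by 0.09. Features with near-identical hairpins could share signal, which was not tested. By position, 25 clusters of precursor genes within 10 kb of each other held 59 genes, and in 12 of them every gene had the same sign (9 above 0, 3 below), a count that ran from 11 to 17 over the rescalings.

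The clusters best known from colon cancer showed no call. Of the miR-17-92 group the 6 genes on chromosome 13 were not analysed here, and their transcript MIR17HG read 5.27, 5.37 and 5.04 against 5.21, 5.42 and 5.17 (difference -0.05, adjusted p = 0.862). The 5 genes of the MIR106A cluster on chromosome X were all below the 25th percentile on every array, with differences from -0.07 (MIR18B) to 0.42 (MIR92A2). MIR106B, MIR93 and MIR25, which lie in an intron of the replication helicase gene MCM7, differed by 0.24, 0.32 and 0.02, and MCM7 by 0.02. The 4 genes with the seed of miR-106 and miR-93 (MIR106A, MIR106B, MIR20B and MIR93) had a median of 0.27, with no call. They were above 0 in each rescaling, where 77 to 105 of all 145 precursor genes were above 0. Median and 75th percentile centring raised every difference, so only quantile scaling and span trend removal could have turned a sign.

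Of the other colon microRNAs, MIR21, the oncomir inside VMP1, read 5.84, 5.52 and 6.06 against 5.65, 6.13 and 6.05 (difference -0.14, 95% interval -0.56 to 0.28, adjusted p = 0.658). MIR31 differed by -0.09 (adjusted p = 0.865), the p53 target MIR34A by 0.12 (adjusted p = 0.707), MIR155 by 0.42 (adjusted p = 0.176), MIR135B by 0.33 (adjusted p = 0.198) and MIR10B by 0.27 (adjusted p = 0.501). The value of MIR10B turned to -0.05 without TRIB3-shRNA array 1. MIR141, of the epithelial miR-200 family, differed by -0.34 (adjusted p = 0.308), and MIR143, better known from smooth muscle, by -0.16 (adjusted p = 0.508). The gut microRNA genes MIR192 and MIR194-2, neighbours on chromosome 11, differed by -0.29 and -0.16, and MIR194-1 by 0.50 (adjusted p = 0.108). MIR182, MIR183 and MIR96 differed by 0.37, 0.51 and -0.16. In the MIR23B cluster inside AOPEP, MIR23B, MIR27B and MIR24-1 differed by -0.15, -0.59 and 0.04 and the host by -0.45, and the MIR23A cluster gave -0.13 (MIR23A), -0.18 (MIR27A) and -0.16 (MIR24-2). None of these passed, and among these microRNA genes the groups overlapped in all but MIR27B and MIR135B.

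Where a precursor lies inside a measured gene on the same strand, the gene and its host can be set side by side. There were 46 such pairs with 33 hosts, the host was the brighter feature in 36, the signs matched in 32 and differed in 14, and the differences had a Pearson correlation of 0.38 (Spearman 0.34), a description in which several precursors share a host and all share the arrays. Among the 33 hosts 1 rose and 3 fell, where 3.25% and 6.39% of all genes did, and in 0 pairs were both called. AEN, a p53-induced nuclease gene, rose by 0.71 (adjusted p = 0.015) while MIR7-2 inside it differed by -0.23 (adjusted p = 0.364). The dimmer feature of MIR7-2 differed by -0.07. The kinase gene JAK1 fell by 0.91 (adjusted p = 0.0375) with MIR101-1 at -0.25, LPP fell by 0.63 (adjusted p = 0.0458) with MIR28 at -0.14, and R3HDM1 fell by 0.63 (adjusted p = 0.0348) with MIR128-1 at -0.11. The 4 host calls were each lost without either of TRIB3-shRNA arrays 1 and 2 or either of Control-shRNA arrays 1 and 2 (adjusted p = 0.0512 to 0.176), and that of LPP also without TRIB3-shRNA array 3 (0.0525). LPP lost it with median or 75th percentile centring too (0.058 and 0.0636), and LPP and R3HDM1 with the span trend removed (0.0537 to 0.0616).

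**Figure D5:**
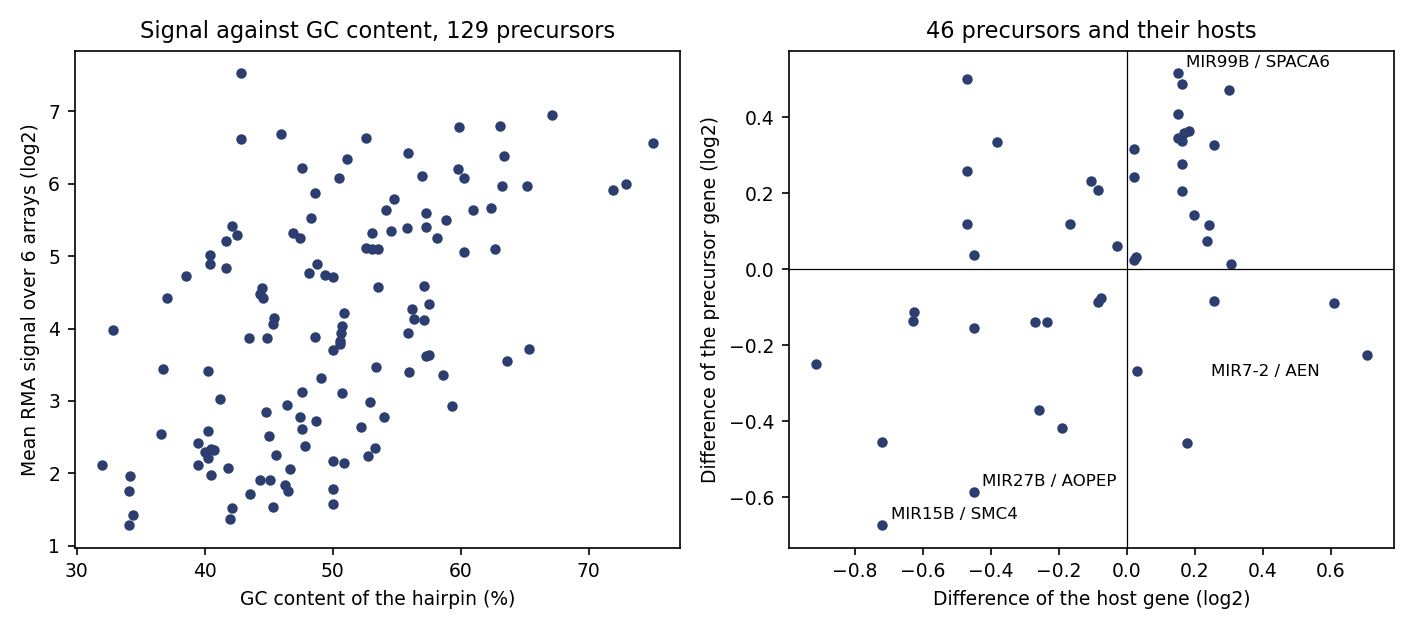
Left, GC content of the RefSeq hairpin (percent) against the mean RMA signal over 6 arrays (log2) for 129 precursor genes, 1 point per gene. Right, the difference of the host gene against that of the precursor inside it (both log2, TRIB3-shRNA minus Control-shRNA) for 46 same-strand pairs. Signal is higher at higher GC content (Pearson 0.52), and 32 pairs have the same sign while MIR7-2 and AEN lie in opposite directions.

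Of 36 genes listed for making and using microRNAs, 21 were measured, 1 rose, 1 fell and 19 did not pass. Over all genes 3.25% rose and 6.39% fell. The median of the 21 was -0.18, against 0.04 over all genes. It was -0.04 over all genes above the median signal, where 19 of the 21 lay. DGCR8, the partner of DROSHA in the nucleus, read 7.31, 7.16 and 7.25 against 6.83, 6.80 and 6.67 and rose by 0.47 (SE 0.12, adjusted p = 0.0449). SND1, a nuclease found with the silencing complex, read 9.28, 9.33 and 9.23 against 9.84, 9.86 and 9.80 and fell by 0.55 (SE 0.12, adjusted p = 0.0235). Neither gene had overlapping groups, and both calls were lost without TRIB3-shRNA array 1 or 2 or Control-shRNA array 1 or 2 (adjusted p = 0.0672 to 0.145), that of DGCR8 also without TRIB3-shRNA array 3 (0.0514) or Control-shRNA array 3 (0.0781). Centring on the 75th percentile also ended that of SND1 (0.0538). The export factor XPO5 differed by -0.18 (adjusted p = 0.361). The silencing scaffolds TNRC6A, TNRC6B and TNRC6C differed by -0.37, -0.37 and -0.47 (adjusted p = 0.142, 0.175 and 0.0724). LIN28B, which blocks let-7 maturation, differed by 0.43 (adjusted p = 0.0558) at a signal below the 25th percentile. SRRT differed by 0.49 (adjusted p = 0.0724), XRN2 by -0.58 (0.0703) and PARN by -0.52 (0.0743), none past the test. Of the 21 genes, 6 were above 0 and 15 below. DROSHA, DICER1 and the Argonaute genes were not analysed here.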

How the data were processed

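RNA of 6 samples was measured on single-colour Affymetrix arrays, 3 per group, with groups and replicate numbers taken from the sample titles. The deposited log2 values were made by the authors with RMA (Affymetrix Expression Console, version 1.4.1), per the submitters' processing notes, and a build for the array annotation was not given in the sources used here. RMA brings all arrays to a shared distribution of signals, which can narrow differences among dim features. Of 53617 features, 16098 had 1 gene symbol, 0 several and 37519 none in the annotation used, and these 16098 matched RefSeq (GRCh38.p14) by gene identifier. Keeping the brightest feature left 14884 genes, and 7 of the 145 precursor genes had more than 1 feature. The brighter and dimmer features differed in sign for MIR101-2 (-0.46 and 0.48), MIR103A1 (-0.37 and 0.41), MIR107 (-0.27 and 0.14) and MIR103A2 (0.03 and -0.07). Those of MIR122, MIR130B and MIR7-2 had the same sign. Sign counts of hosts, clusters and shared mature strands use the brighter feature. No pair of arrays shared more than 0.127% of values.

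All genes were fitted together in limma 3.58.1 under R 4.3.3 with group as the only term, two-sided, and p-values were adjusted over all genes by Benjamini-Hochberg. Sequences, hosts, clusters (10 kb) and gene order came from RefSeq and were joined with Python 3.11.15. The limma step was tested on simulated data. Pairs with a strand missing from the tables used were left out of the same-strand counts.

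The precursor genes and gene lists were chosen with earlier results of these data known. Genes were named by a rule: called precursor genes, the 10 brightest, the 5 largest differences each way, named clusters and let-7, colon microRNAs, their hosts, and called genes of the lists. The neighbours (the 3 nearest measured genes on each side of a called gene), uncalled genes of the microRNA machinery and precursor genes outside the rule were named after values were seen. Same-numbered arrays of the groups did not deviate together (correlations of -0.20, -0.09 and -0.43), so replicate numbers were not treated as pairs. Arrays of unlike number had correlations from -0.23 to 0.33. The highest were TRIB3-shRNA array 1 with Control-shRNA array 3 (0.33) and TRIB3-shRNA array 3 with Control-shRNA arrays 2 and 1 (0.29 and 0.26). All these correlations use deviations from group means, which cancel out over the arrays of a group, so they are tied to each other. The source of any shared deviation was not tested. Alternatives were a replicate block, each array left out, quantile, median and 75th percentile scaling, removal of each array's trend against gene span, filters on dim genes, array weights, an intensity trend with or without robust fitting, averaged features and no collapsing. The fit without collapsing covered all 53617 features, including the 37519 with no gene symbol, and adjusted p-values over all of them. Each gene was read from its same brightest feature, so its difference did not change. Leaving out both arrays numbered 3 was added after seeing the data.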

Additional observations from a re-analysis of the deposited data

How the results depend on the processing

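Over the 19 alternatives 0 called values changed sign, MIR196A1 was the 1 call of 8 that held in all, and 27 uncalled precursor genes were called in at least 1. The count of called precursor genes (8) ran from 1 to 12 when an array was left out; it was 4 of the 22 tested above the median of mean signal, 1 without collapsing features, 28 with array weights and 17 without both arrays numbered 3. The count over all genes (1435) ran from 199 to 2696 when an array was left out. It was 388 without collapsing, 4099 with weights and 3392 without both arrays numbered 3. The fit without collapsing also took in the 37519 features with no gene symbol, so its counts do not show the part of collapsing alone. With the replicate number as a block, although the numbers do not pair the samples, 402 genes and 3 precursor genes were called, with 0 of the microRNA machinery and 0 hosts. Of these 3 precursor genes MIR196A1 was 1 of the 8, while MIR142 and MIRLET7F1 were not, and the other 7 calls were lost. The count in the list of microRNA machinery (2) ran from 0 to 5 when an array was left out; it was 5 or 6 with filters at the 25th percentile or the median, 5 with an intensity trend (with or without robust fitting), 0 without collapsing, 11 with weights and 8 without both arrays numbered 3. The count of hosts (4) ran from 0 to 4 when an array was left out; it was 1 without collapsing, 2 with the span trend removed, 8 with weights and 7 without both arrays numbered 3. Calls over all genes split 484 higher to 951 lower in the deposited values, 659 to 818 with median centring and 853 to 825 with 75th percentile centring. Judged against the median of every array, 19 rather than 52 precursor genes were above the line. The cause of these shifts was not tested. Signal near the low end of the arrays limits most of the precursor genes, and a call that fails there does not show that the transcript did not differ.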
